A study of Caenorhabditis elegans with 6 samples.

Results

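The effect of losing EBAX-1 on mRNA levels was compared between gravid adults and starved L1 larvae of *Caenorhabditis elegans*. For each gene the log2 fold change of *ebax-1* over wild-type (WT) animals was taken within adults and within L1 larvae, and the L1 value was subtracted from the adult value. The result is called the stage difference here: a positive value means that mutant over WT stood higher in adults than in L1 larvae, whichever way it moved at each stage. Genes entered with 50 or more counts summed over the libraries of each stage, which 11696 of 20447 genes in the table met. A further 1867 genes reached that level in adults only and 1582 in L1 larvae only, and 5302 reached it in neither.

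Adults gave 1 library of *ebax-1(tm2321)* (strain FX02321) and 1 of WT (strain N2), and L1 larvae gave 2 libraries of *ebax-1(tm2321)* (strain CZ9907) and 2 of WT (N2). The tm2321 allele is a null allele of *ebax-1* by the study's account, and both mutant strains carry it. Animals were synchronized by bleaching and kept at 20 °C. Adults had grown on food for about 68 h, whereas L1 larvae had hatched without food and were starved, so age, feeding and mutant strain change together and cannot be told apart. The study also proposes that the tm2321 line carries a second mutation that lowers a group of piRNAs. Poly(A)+ RNA of whole animals was sequenced, so fewer cells of a type and less RNA per cell cannot be told apart.

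EBAX-1 is the counterpart in *C. elegans* of the mammalian protein ZSWIM8 and recruits substrates to a cullin-RING E3 ubiquitin ligase. The ligase is known for target-directed microRNA degradation, in which it acts on an Argonaute protein and exposes the bound microRNA to nucleases, and EBAX-1 is also known for protein quality control of an axon guidance receptor. Starved L1 larvae have a finished larval cuticle, arrested cells and only the founders of the germline, whereas gravid adults hold a large germline, oocytes and embryos and wear the adult cuticle. Many genes therefore have a different level or a different tissue of origin at the 2 stages.

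Total counts were 13148409 in the *ebax-1* adult library and 21328335 in the WT adult library, and ran from 10937932 to 13425500 in the L1 libraries. Stage markers went with the labels. The yolk protein genes *vit-2*, *vit-5* and *vit-6* ran from 3247 to 23031 CPM (counts scaled to library size, with TMM factors within each stage) in adults and from 0 to 1.77 CPM in L1 larvae. The adult cuticle collagen *col-19* stood at 1128 CPM in the *ebax-1* adult library and 792 CPM in the WT adult library, and at 0.422 CPM or less in every L1 library. The early embryonic genes *end-1*, *end-3*, *med-1* and *tbx-37* were at or under 0.712 CPM in all 6 libraries. The early embryonic marker *pes-10* had 2.4 CPM in *ebax-1* adults against 2.18 CPM in WT adults, and 1.3 and 0.796 CPM in *ebax-1* L1 larvae against 0.157 and 0.253 CPM in WT L1 larvae, from 16 and 9 counts against 2 and 3. The only residual spread in the model came from the L1 libraries, 2 residual degrees of freedom, and each adult library was assumed to vary like an L1 library, so the p-values have no check from a second adult culture.

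The stage difference was tested in 1 edgeR quasi-likelihood fit over all 6 libraries, two-sided, with Benjamini-Hochberg adjustment over the 11696 genes and a threshold of 0.05. The adult difference was called above the L1 difference in 788 genes (6.74% of those tested) and below it in 595 genes (5.09%). The median absolute stage difference was 0.97 among the 788 and 0.94 among the 595, and 368 and 261 of them reached 2-fold. In the same fit 879 genes rose (7.52%) and 1250 fell (10.7%) in mutant L1 larvae. In the adults, compared by level only because each genotype had 1 library, the mutant library was 2-fold or more higher in 330 genes (2.82%) and 2-fold or more lower in 243 (2.08%). The count below moved with single libraries: it was 945 without *ebax-1* L1 replicate 1 and 1011 without replicate 2. It was 240, and the count above 265, in a DESeq2 Wald test. The L1 falls numbered 804 without WT L1 replicate 1 and 781 without replicate 2, and the L1 rises 536 without WT L1 replicate 2. Scaling by total counts, which lowers the median stage difference of all genes to -0.130, gave 571 genes above and 909 below.

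**Figure D1:**
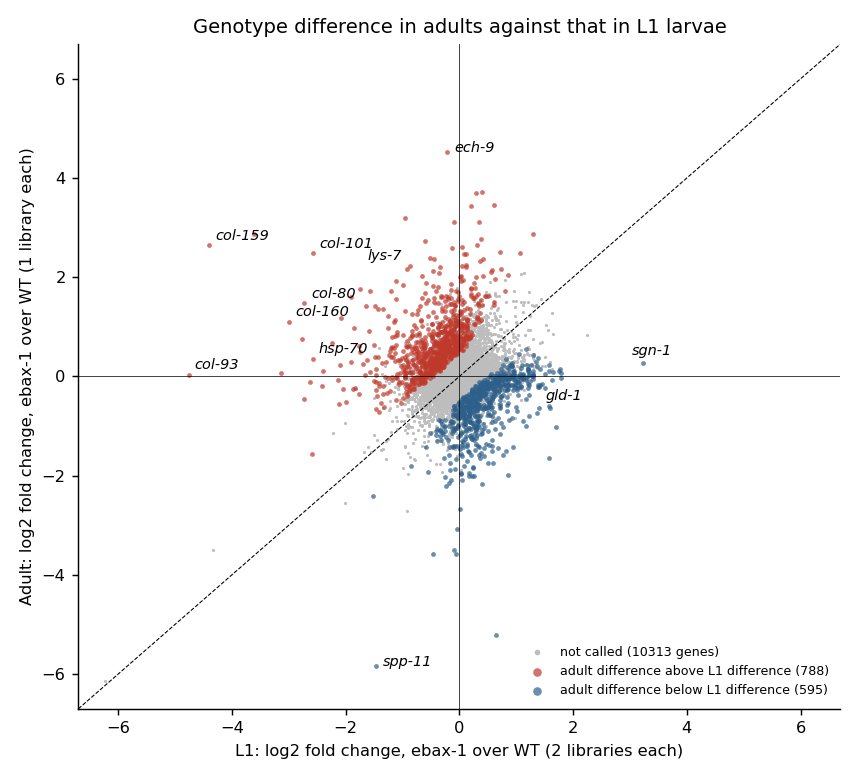
Adult log2 fold change of *ebax-1* over WT (vertical axis, 1 library each) against the L1 log2 fold change (horizontal axis, 2 libraries each) for the 11696 genes. Red points are the 788 genes called above the dashed line of equal change, blue points the 595 called below it and grey points the rest; the collagens lie at the upper left and *sgn-1* at the right.

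The adult and L1 fold changes were nearly unrelated across genes. Pearson's r was 0.11 and Spearman's rho 0.11 over the 11696 genes, which share 6 libraries and are not independent replicates. The 1250 genes that fell in L1 larvae had a median log2 fold change of -0.11 in adults and -0.51 in L1 larvae, and 61.6% of them were below 0 in adults. The 879 genes that rose in L1 larvae had a median of 0.05 in adults and 0.59 in L1 larvae, and 58.6% were above 0 in adults. In size, 394 genes differed at least 2-fold in adults and by less than 0.5 on the log2 scale in L1 larvae, of which 223 were higher and 171 lower in mutant adults. The reverse held in 120 genes that were higher and 76 that were lower in mutant L1 larvae. Both stages differed at least 2-fold in 60 genes, 38 of them in 1 direction and 22 in opposite directions.

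The 22 genes with opposite directions were led by cuticle collagens. In 19 of them the mutant was at least 2-fold higher in adults and at least 2-fold lower in L1 larvae. The other 3 were *clec-31*, *T20G5.8* and *M163.8*, which ran the reverse way with stage differences of -3.22, -2.72 and -2.19. All 22 were called for the stage difference, to which both the L1 and the adult value contribute. Collagens made up 8 of the 19 (*col-159*, *col-92*, *col-101*, *col-80*, *col-160*, *col-147*, *col-39* and *col-176*). Beside them stood *clec-60*, *dod-22*, *fbxa-26*, *hsp-16.2*, *pals-14*, the Notch ligand family gene *dsl-6*, the serpin *srp-2* and the UDP-glucuronosyltransferase *ugt-41*. The last 3, *F19B2.5*, *ZK105.13* and *F47B8.4*, carry only sequence names.

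Cuticle collagens are small secreted proteins that are cross-linked into the exoskeleton, and each larval stage and the adult make their own set during the molt. *col-101* (WBcel235 chromosome IV, 325435 to 327020, minus strand) stood at 712 CPM in the *ebax-1* adult library against 127 CPM in the WT adult library, and at 2.93 and 3.36 CPM in *ebax-1* L1 larvae against 19.6 and 18.7 CPM in WT L1 larvae. The mutant was thus the higher of the adults and both mutant libraries were below both WT libraries in L1 larvae. The adult ratio was 5.6 (95% exact binomial interval 5.36 to 5.84, counting error only), the L1 log2 fold change was -2.58, and the stage difference was 5.07 (SE 0.195, edgeR adjusted p = 7.01e-11).

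*col-80* (chromosome II, 10707201 to 10708287) had 746 CPM in *ebax-1* adults and 270 CPM in WT adults, and 20.6 and 19 CPM in *ebax-1* L1 larvae against 124 and 139 CPM in WT L1 larvae. The stage difference of *col-80* was 4.19 (SE 0.166, edgeR adjusted p = 7.01e-11). *col-160* (chromosome V, 13200982 to 13202189) had 486 CPM in *ebax-1* adults against 228 CPM in WT adults, and 57.7 and 68.5 CPM in *ebax-1* L1 larvae against 441 and 559 CPM in WT L1 larvae. Its neighbour *col-159* (chromosome V, 13198231 to 13202177) had the largest stage difference of the genes ranked, 7.05 (SE 0.302). It stood at 52.3 CPM in *ebax-1* adults against 8.31 CPM in WT adults, and at 1.3 and 0.884 CPM in *ebax-1* L1 larvae against 23.7 and 25.8 CPM in WT L1 larvae. In each of these genes the L1 libraries of the genotypes did not overlap. The gene model of *col-159* covers nearly all of that of *col-160*, on 1 strand, so their counts are not wholly separable.

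*col-93* (chromosome III, 10984552 to 10985609) showed a different pattern, a fall in L1 larvae beside an adult ratio near 1. It had 75.4 CPM in *ebax-1* adults and 73.7 CPM in WT adults, an adult ratio of 1.02 (0.944 to 1.11), and 1.38 and 1.15 CPM in *ebax-1* L1 larvae against 37.8 and 34.7 CPM in WT L1 larvae. The stage difference was 4.79 (SE 0.249, edgeR adjusted p = 1.70e-09). *col-92*, beside it on chromosome III, had 14 CPM in *ebax-1* adults against 1.85 CPM in WT adults but few L1 counts, 2 and 1 in the *ebax-1* libraries against 18 and 40 in the WT libraries, and a stage difference of 6.48 (SE 0.779). *col-91* had 14 CPM in *ebax-1* adults against 1.47 CPM in WT adults, and 13.6 and 13.5 CPM in *ebax-1* L1 larvae against 26 and 26.9 CPM in WT L1 larvae. Reads shared by near-identical collagens were left out by the authors, so levels of close paralogs are uncertain.

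Over the whole list, 71 of 175 cuticle collagen genes entered the test. The adult difference was above the L1 difference in 32 and below it in 4, with a median stage difference of 0.86, against 6.74% above, 5.09% below and a median of -0.01 over all genes. Their median log2 fold change was 0.58 in adults and -0.21 in L1 larvae. In the adult libraries 25 stood 2-fold or more higher in the mutant and 1 stood 2-fold or more lower. The L1 direction was mixed, with 15 called higher and 20 called lower. Of the 20 that fell in L1 larvae, 19 were above 0 in adults and 10 were at least 2-fold higher, whereas 480 of all 1250 genes that fell in L1 larvae were above 0 in adults. Of the 15 that rose in L1 larvae, 11 were above 0 in adults. Summed over the list, collagens took 22185 CPM in the *ebax-1* adult library against 15968 CPM in the WT adult library, and 3109 and 3311 CPM in *ebax-1* L1 larvae against 6024 and 6419 CPM in WT L1 larvae. A DESeq2 Wald test called 19 above and 2 below.

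**Figure D2:**
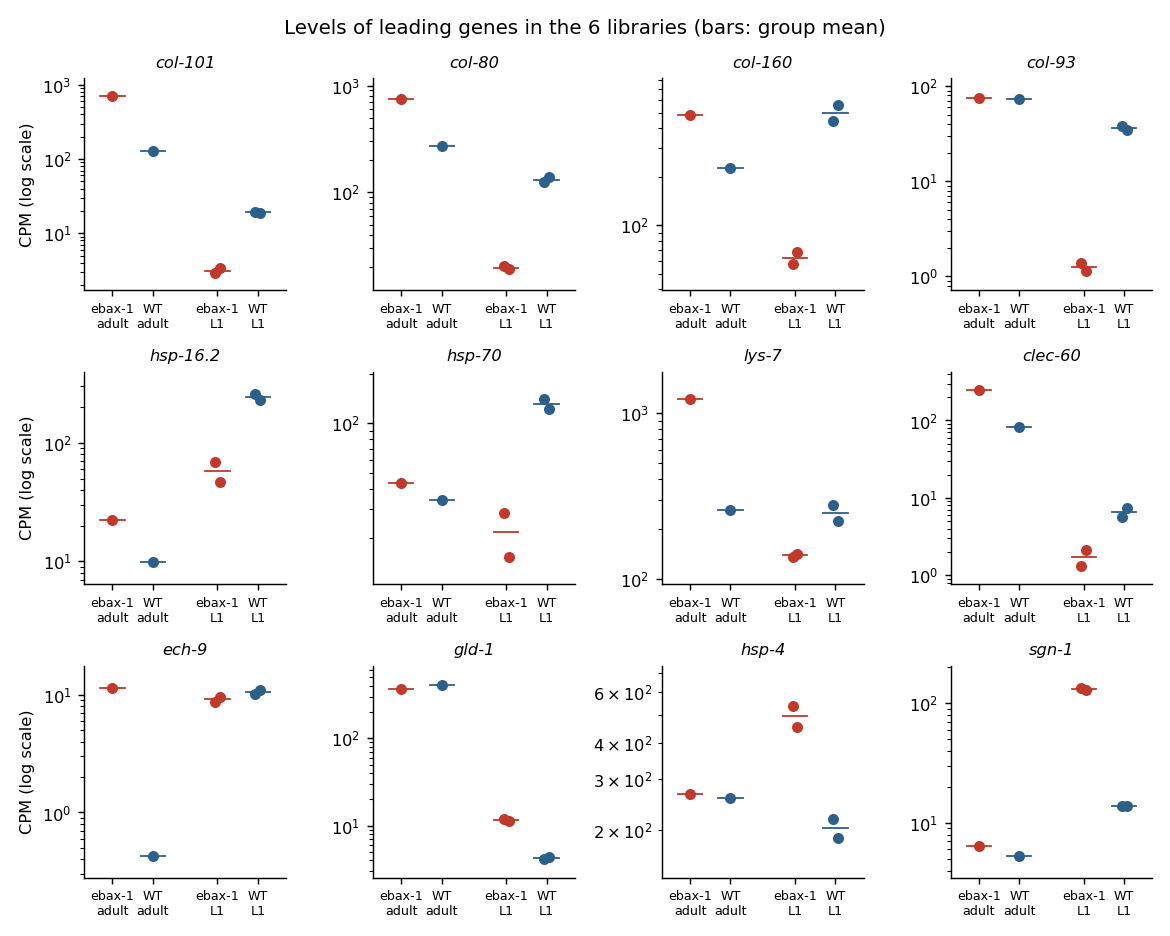
CPM (log axis, a range of its own in each panel) of 12 genes in the *ebax-1* adult, WT adult, *ebax-1* L1 and WT L1 libraries; each point is 1 library and each bar a group mean. The collagens *col-101*, *col-80* and *col-160* are higher in the mutant among adults and lower among L1 larvae, while *ech-9* differs in adults and *gld-1*, *hsp-4* and *sgn-1* differ in L1 larvae.

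Basement membrane genes encode the sheet of laminin, type IV collagen and associated proteins under epithelia and muscle. All 18 listed genes entered the test, and their median stage difference was 0.40. Of them 9 were called above and 1 below, against 6.74% and 5.09% over all genes. Their median log2 fold change was 0.48 in adults and -0.05 in L1 larvae, and 0 rose and 1 fell in L1 larvae, so most of the difference lay in the adult libraries. A DESeq2 Wald test called 4 above and 1 below. The laminin alpha chain gene *epi-1* had 199 CPM in *ebax-1* adults against 98.2 CPM in WT adults, and 368 and 388 CPM in *ebax-1* L1 larvae against 390 and 401 CPM in WT L1 larvae. The stage difference was 1.08 (SE 0.149, edgeR adjusted p = 0.000145). The hemicentin gene *him-4* had a stage difference of 1.05. The type IV collagen gene *emb-9* had 638 CPM in *ebax-1* adults against 384 CPM in WT adults, and 1103 and 1156 CPM in *ebax-1* L1 larvae against 1144 and 1213 CPM in WT L1 larvae. The L1 ranges of *emb-9* overlapped, and its stage difference was 0.79 (SE 0.151, edgeR adjusted p = 0.00244). The fibulin gene *fbl-1* was the one called below, at 29.2 CPM in *ebax-1* adults against 60.3 CPM in WT adults and 82.6 and 81.6 CPM in *ebax-1* L1 larvae against 87.1 and 87.3 CPM in WT L1 larvae.

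Body wall muscle genes ran the same way. Of 38, 13 were called above and 0 below, against 6.74% and 5.09% over all genes. A DESeq2 Wald test called 7 above and 0 below. The list median was 0.26 in adults and -0.04 in L1 larvae. The myosin heavy chain gene *unc-54* had 1538 CPM in *ebax-1* adults against 1050 CPM in WT adults, and 9070 and 10415 CPM in *ebax-1* L1 larvae against 12919 and 14907 CPM in WT L1 larvae. The troponin T gene *tnt-2* (1.17), the alpha-actinin gene *atn-1* (0.92) and the titin-family gene *ttn-1* (1.59) were also called above. *ttn-1* had 478 CPM in *ebax-1* adults against 175 CPM in WT adults. Its L1 values were 677 and 1077 CPM in the mutant against 924 and 1016 CPM in WT, so its L1 libraries overlapped and the mutant replicates stood far apart.

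Axon guidance genes, among them cues and receptors of growing axons, had 5 of 41 called above and 0 below, against 6.74% and 5.09% over all genes. A DESeq2 Wald test called 1 above and 0 below. That 1 of 41 is close to the share over all genes in the same test, 265 of 11696. The list medians were 0.19 in adults and -0.06 in L1 larvae. The 5 included the Slit gene *slt-1* (stage difference 0.97), the semaphorin gene *mab-20* (0.87), the nidogen gene *nid-1* (0.70) and *dpy-19* (1.23), a C-mannosyltransferase needed for neuroblast migration. In these 4 the adult levels ran from 14 to 133 CPM in the mutant and from 8.98 to 98.3 CPM in WT. The calls were not rises in adults alone: *dpy-19*, *slt-1* and *nid-1* were also called lower in mutant L1 larvae, and *mab-20* was not. The fall of *dpy-19* in L1 larvae was at least 2-fold. The interval of its adult ratio included 1, so the larger part of its stage difference came from the L1 larvae.

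The neuronal and ribosomal lists had their medians below 0 in adults and near 0 in L1 larvae. Of 57 neuronal genes 1 was called above and 10 below, against 6.74% and 5.09% over all genes. The list medians were -0.46 in adults and 0.04 in L1 larvae, and 50 of the 57 were below 0 in adults. The neuron markers *rab-3*, *snb-1* and *unc-119* differed less between the adult libraries than this median. In adults *rab-3* and *snb-1* were slightly lower in the mutant and *unc-119* was slightly higher, so the list median does not hold for every neuronal gene. The FMRFamide-like neuropeptide gene *flp-7* had 11.5 CPM in *ebax-1* adults against 32.6 CPM in WT adults, and 50.7 and 64.6 CPM in *ebax-1* L1 larvae against 47.9 and 55.9 CPM in WT L1 larvae. The stage difference was -1.65 (SE 0.238, edgeR adjusted p = 0.000232). *flp-9* stood at -0.81, and the touch neuron tubulin gene *mec-7* at -0.87. *mec-7* rose in L1 larvae (220 and 228 CPM in the mutant against 138 and 137 CPM in WT). The synaptic vesicle priming gene *unc-13* was the one called above (0.77). The neuronal count below was 24 without *ebax-1* L1 replicate 1 and 16 without replicate 2, 20 under scaling by total counts and 6 in a DESeq2 Wald test.

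Of 77 cytosolic ribosomal protein genes, 76 were below 0 in adults, with a median of -0.41, while the median in L1 larvae was -0.06. None was called above and 9 were called below, against 6.74% and 5.09% over all genes. *rpl-29* had 250 CPM in *ebax-1* adults against 372 CPM in WT adults, and 443 and 644 CPM in *ebax-1* L1 larvae against 398 and 346 CPM in WT L1 larvae, a stage difference of -1.12 (SE 0.228, edgeR adjusted p = 0.00385). Summed, the list took 69971 CPM in the *ebax-1* adult library against 92808 CPM in the WT adult library, and 131280 and 146797 CPM in *ebax-1* L1 larvae against 151631 and 142425 CPM in WT L1 larvae, where the genotypes overlapped. The count below was 41 without *ebax-1* L1 replicate 1, 16 without replicate 2 and 4 without WT L1 replicate 2, and 32 under scaling by total counts.

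Coding length differed from that of all genes in most of these lists, though little in the muscle list. With genes in 10 bins by coding length, the shortest bin (453 bases or fewer) had a median log2 fold change of -0.06 in adults and 0.08 in L1 larvae, and the longest bin (2808 or more) 0.03 in adults and -0.07 in L1 larvae. In the longest bin 145 of 1155 genes were called above and 42 below, and in the shortest bin 54 of 1171 above and 93 below. Across 11553 genes with a coding length, Spearman's rho was 0.12 with the stage difference. The median coding length was 4826 bases for the basement membrane list, 1216 for muscle, 552 for the neuronal list and 453 for ribosomal proteins, against 1185 over all genes tested. With an offset for coding length in the fit, an alternative chosen after seeing the data, the calls were 6 above and 1 below for basement membrane, 8 and 0 for muscle, 1 and 8 for the neuronal list and 1 and 5 for ribosomal proteins. The median stage differences of these lists were then 0.29, 0.21, -0.34 and -0.27, against 0.40, 0.27, -0.41 and -0.34 without the offset. The axon guidance list had a median coding length of 2337. With the offset it had 4 above and 0 below, and its median stage difference was 0.13, against 0.25 without.

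**Figure D3:**
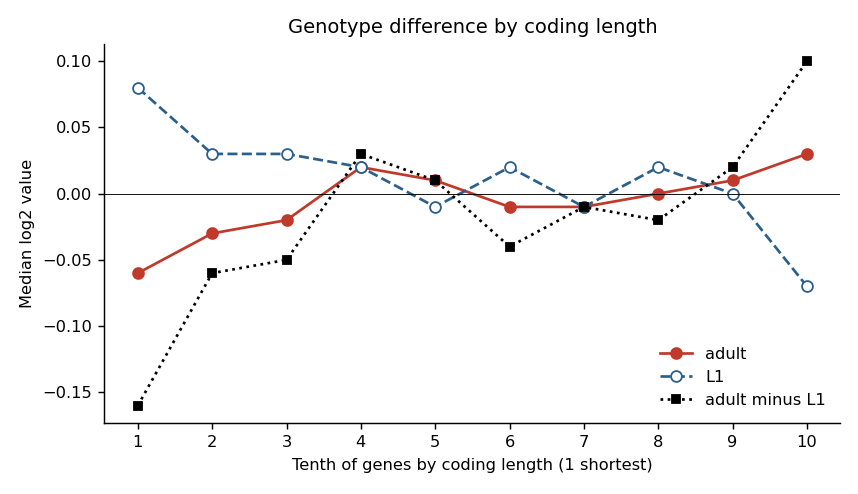
Median log2 fold change of *ebax-1* over WT in adults and in L1 larvae, and median stage difference, in 10 bins of genes by coding length (horizontal axis, 1 the shortest). The adult median runs from -0.06 to 0.03 and the L1 median from 0.08 to -0.07, so that the stage difference runs from -0.16 in the shortest bin to 0.10 in the longest.

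In 4 lists of germline and cell division genes the L1 calls were nearly all rises, and the adult medians lay between -0.07 and -0.04. Over all genes 7.52% rose and 10.7% fell in L1 larvae, and 6.74% were called above and 5.09% below. Of 36 regulators of RNA in oocytes and early embryos, 17 rose and 1 fell in L1 larvae, 14 had a stage difference called below and 1 above, and the medians were -0.04 in adults and 0.65 in L1 larvae. The translational repressor gene *gld-1* (chromosome I, 7695681 to 7698222) had 367 CPM in *ebax-1* adults against 412 CPM in WT adults, and 11.9 and 11.2 CPM in *ebax-1* L1 larvae against 4.15 and 4.39 CPM in WT L1 larvae. The stage difference of *gld-1* was -1.59 (SE 0.194, edgeR adjusted p = 4.37e-05). The polarity and zinc-finger genes *mex-5* (-1.35), *mex-6* (-1.44) and *mex-1* (-1.41) followed it. For *mex-5* the adult ratio was 0.933 (0.900 to 0.967), and the L1 levels were 35.4 and 29.7 CPM in the mutant against 13 and 14.4 CPM in WT.

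P granules are the RNA-rich bodies of germ cells. Of 31 P granule and small RNA genes, 10 rose and 0 fell in L1 larvae, and 8 were called below and 0 above for the stage difference. The matching shares over all genes were 7.52% and 10.7% in L1 larvae, and 5.09% and 6.74% for the stage difference. The P granule gene *meg-1* had 94.7 CPM in *ebax-1* adults against 90.9 CPM in WT adults, and 12.1 and 9.2 CPM in *ebax-1* L1 larvae against 3.6 and 2.45 CPM in WT L1 larvae. The Argonaute gene *wago-1* stood at -0.91, and *pgl-1*, a constitutive P granule component, at -1.05. Of 30 meiosis genes 4 rose and 0 fell in L1 larvae, and 5 were called below and 0 above. Among them the nuclear envelope gene *sun-1* (-0.98) and the polo-like kinase gene *plk-2* (-1.13) were not called without WT L1 replicate 2. The meiosis count was 11 without *ebax-1* L1 replicate 2, 3 without replicate 1 or without WT L1 replicate 2, and 0 in the DESeq2 Wald test.

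Genes of the cell cycle and of DNA replication numbered 50, of which 25 rose in L1 larvae and 0 fell, and 18 were called below and 0 above for the stage difference. Over all genes 7.52% rose and 10.7% fell in L1 larvae, and 5.09% were called below and 6.74% above. The B-type cyclin gene *cyb-3* had 306 CPM in *ebax-1* adults against 273 CPM in WT adults, and 72.2 and 59.7 CPM in *ebax-1* L1 larvae against 30.3 and 31.9 CPM in WT L1 larvae, a stage difference of -0.92 (SE 0.167, edgeR adjusted p = 0.00161). *cyb-1* (-0.93), the replicative helicase gene *mcm-7* (-0.92) and the replication clamp gene *pcn-1* (-0.78) were close to it. In all 4 lists no member differed 2-fold between the adult libraries. Oocyte markers moved with this result in L1 larvae. *oma-1* stood at 14.2 and 8.58 CPM in *ebax-1* L1 larvae against 6.58 and 5.58 CPM in WT L1 larvae, and *puf-5* at 6.67 and 3.8 CPM in *ebax-1* L1 larvae against 3.05 and 3.21 CPM in WT L1 larvae. *pes-10*, given with the stage markers, also stood higher in both *ebax-1* L1 libraries than in either WT L1 library, but the L1 libraries of *end-1* overlapped. Of 18 early embryonic genes tested, 4 rose and 2 fell in L1 larvae, and 3 were called above and 0 below. Their medians were 0.21 in adults and 0.31 in L1 larvae, and their median stage difference was -0.09. The adult intestine markers *vit-2*, *vit-5* and *vit-6* were under 2 CPM in every L1 library, and the sperm gene *gsp-3* was at 0.0845 CPM or less. Whether a different share of germline or embryonic RNA in the L1 libraries has a part in these values was not tested. A DESeq2 Wald test called 8 of the 36 oocyte regulators, 5 of the 31 P granule genes and 8 of the 50 cell cycle genes below. The median stage difference of the oocyte regulators, -0.72, was -0.46 without *ebax-1* L1 replicate 1 and -0.83 without replicate 2. That of the cell cycle genes, -0.42, lay between -0.49 and -0.41 whichever L1 library was left out.

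**Figure D4:**
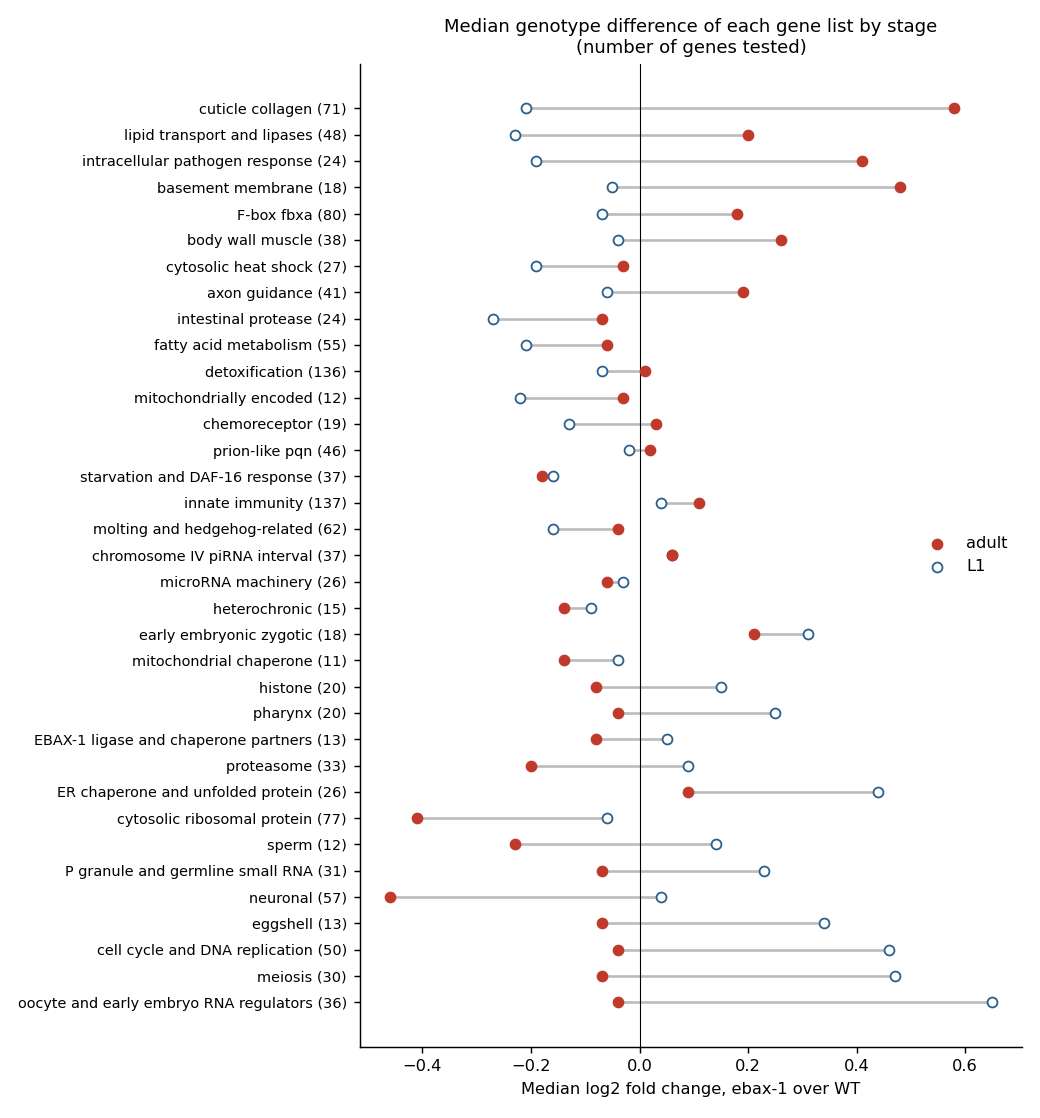
Median log2 fold change of *ebax-1* over WT in adults (filled) and in L1 larvae (open) for each gene list with 10 or more genes tested, ordered by the median stage difference. Collagens stand at 0.58 in adults and -0.21 in L1 larvae, oocyte and early embryo regulators at -0.04 and 0.65, and the 2 medians of the chromosome IV piRNA interval coincide at 0.06.

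The L1 calls were mostly falls among chaperone genes of the cytosol and mostly rises among those of the endoplasmic reticulum (ER), and the adult medians were -0.03 and 0.09. Of 27 cytosolic heat shock genes 1 rose and 12 fell in L1 larvae, and 9 had a stage difference above and 3 below. The matching shares over all genes were 7.52% and 10.7% in L1 larvae, and 6.74% and 5.09% for the stage difference. The small heat shock gene *hsp-16.2* (chromosome V, 1804334 to 1804957) had 22.3 CPM in *ebax-1* adults against 9.88 CPM in WT adults, and 69.0 and 46.9 CPM in *ebax-1* L1 larvae against 258 and 232 CPM in WT L1 larvae. The stage difference was 3.24 (SE 0.267, edgeR adjusted p = 5.93e-07). The inducible *hsp-70* had 43.4 CPM in *ebax-1* adults against 34 CPM in WT adults, and 28.6 and 15.3 CPM in *ebax-1* L1 larvae against 141 and 123 CPM in WT L1 larvae. The stage difference of *hsp-70* was 2.93, that of *hsp-16.41* was 2.92 and that of *hsp-110* was 1.68. *hsp-110* was at an adult ratio of 1.01 (0.966 to 1.06), so nearly all of its stage difference came from the L1 larvae.

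Of 26 genes of ER chaperones and the unfolded protein response, 19 rose and 2 fell in L1 larvae, against 7.52% and 10.7% over all genes. For the stage difference 9 were called below and 1 above, against 5.09% and 6.74%. The list medians were 0.09 in adults and 0.44 in L1 larvae. *hsp-4*, one of the BiP chaperones of the ER, had 267 CPM in *ebax-1* adults against 259 CPM in WT adults, and 540 and 457 CPM in *ebax-1* L1 larvae against 219 and 188 CPM in WT L1 larvae. The stage difference of *hsp-4* was -1.24 (SE 0.175, edgeR adjusted p = 0.000186). The disulfide isomerase gene *pdi-2* (-0.92) and the other BiP gene *hsp-3* (-0.74) ran the same way. The ER stress sensor gene *pek-1* was the one called above (0.87), at 105 CPM in *ebax-1* adults against 71.2 CPM in WT adults. The count below was 4 without WT L1 replicate 2.

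The L1 calls among lipid genes were mostly falls. Over all genes 7.52% rose and 10.7% fell in L1 larvae, and 6.74% were called above and 5.09% below. Of 48 lipid transport and lipase genes 0 rose and 16 fell in L1 larvae, and 17 were above and 3 below for the stage difference, with medians of 0.20 in adults and -0.23 in L1 larvae. A DESeq2 Wald test called 5 above and 0 below. The carboxylesterase genes *cest-1.1* (2.38), *cest-10* (1.99) and *cest-5.2* (1.54) were among the 17. *cest-5.2* had 42.6 CPM in *ebax-1* adults against 20.5 CPM in WT adults, and 11.4 and 10.3 CPM in *ebax-1* L1 larvae against 15.1 and 15.4 CPM in WT L1 larvae. Of 55 fatty acid metabolism genes 2 rose and 24 fell in L1 larvae, and 12 were above and 1 below (19 above without *ebax-1* L1 replicate 2).

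Among genes that differed 2-fold in adults alone, the highest stage difference was that of *ech-9* (chromosome IV, 10233310 to 10235329), an enoyl-CoA hydratase family gene. It had 11.5 CPM in *ebax-1* adults against 0.427 CPM in WT adults, from 153 and 9 counts, and 107 and 109 counts in *ebax-1* L1 larvae against 129 and 131 in WT L1 larvae. The WT adult library alone was low, and the stage difference was 4.74 (SE 0.431, edgeR adjusted p = 1.20e-06). The acyl-CoA synthetase gene *acs-7* had 98.5 CPM in *ebax-1* adults against 32.7 CPM in WT adults, and 287 and 258 CPM in *ebax-1* L1 larvae against 441 and 414 CPM in WT L1 larvae. *hacd-1* was lower at both stages, with an adult ratio of 0.696 (0.663 to 0.730), and was called above (1.48), with 14.1 and 10.8 CPM in *ebax-1* L1 larvae against 44.2 and 56.4 CPM in WT L1 larvae.

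Among 137 innate immunity genes 33 were called above and 19 below, both over the shares of all genes, and a DESeq2 Wald test called 17 above and 10 below. *lys-7*, which encodes a lysozyme (chromosome V, 3481432 to 3482600), had 1218 CPM in *ebax-1* adults against 260 CPM in WT adults, and 135 and 142 CPM in *ebax-1* L1 larvae against 279 and 223 CPM in WT L1 larvae. Its adult ratio was 4.68 (4.54 to 4.82), and its stage difference was 3.08 (SE 0.181, edgeR adjusted p = 9.08e-09). The C-type lectin gene *clec-60* had 249 CPM in *ebax-1* adults against 81.6 CPM in WT adults, and 1.3 and 2.12 CPM in *ebax-1* L1 larvae against 5.72 and 7.35 CPM in WT L1 larvae. Of 24 genes of the intracellular pathogen response, which worms mount against microsporidia and virus, 7 were above and 0 below (3 and 0 in a DESeq2 Wald test), and 6 were at least 2-fold higher in mutant adults. Over all genes 6.74% were called above and 5.09% below, and 2.82% were at least 2-fold higher in mutant adults. *pals-6* had 27.3 CPM in *ebax-1* adults against 7.5 CPM in WT adults, and 4.39 and 3.45 CPM in *ebax-1* L1 larvae against 7.91 and 7.86 CPM in WT L1 larvae. *pals-38* (2.27) and *pals-32* (1.38) ran the same way.

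**Figure D5:**
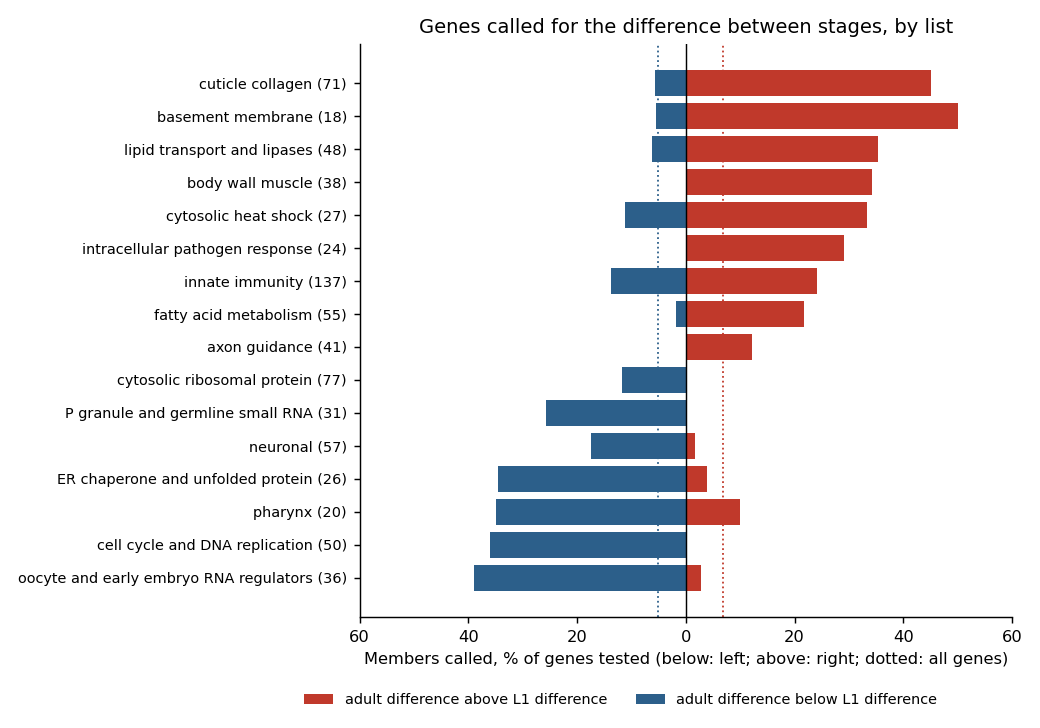
Share of the tested genes of 16 lists (chosen after their counts were seen) whose adult difference was called above (red, to the right) or below (blue, to the left) the L1 difference; dotted lines mark the shares over all genes, 6.74% above and 5.09% below. Basement membrane and collagen lists reach furthest to the right, and oocyte regulators and cell cycle genes furthest to the left.

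Some called genes were neighbours. The rule used here was 3 or more tested genes in a row called in 1 direction, and the runs described were chosen after their values were seen. On chromosome IV, *dod-24*, *F55G11.8*, *dod-22* and *F55G11.4* (12940106 to 12975603), genes of CUB-like secreted proteins, were called above with stage differences of 1.79 to 3.41. *F55G11.4* had 109 CPM in *ebax-1* adults against 8.31 CPM in WT adults, and 33 and 20.3 CPM in *ebax-1* L1 larvae against 25.5 and 18.2 CPM in WT L1 larvae, which overlapped. *dod-24* had 29.7 CPM in *ebax-1* adults against 4.46 CPM in WT adults, and 42.4 and 36.7 CPM in *ebax-1* L1 larvae against 63.1 and 56.5 CPM in WT L1 larvae.

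The longest run held 6 genes on chromosome V (9096267 to 9130675), from *F21C10.10* to *F21C10.3* and including *pqn-31*, all called above with stage differences of 0.96 to 1.60. On the same chromosome *hsp-16.2*, *hsp-16.41* and *Y46H3A.5* formed a run above, as did *pals-37*, *pals-39* and *pals-38*. The epidermal antimicrobial peptide genes *nlp-31*, *nlp-30*, *nlp-29* and *nlp-28* (3980055 to 3988316) formed a run below, with stage differences of -1.62 to -0.81. *nlp-29* had 66.6 CPM in *ebax-1* adults against 72.8 CPM in WT adults, and 53.7 and 46.9 CPM in *ebax-1* L1 larvae against 30.7 and 32.1 CPM in WT L1 larvae. Of 20 genes of the pharynx, the feeding organ, 2 were called above and 7 below, against 6.74% and 5.09% over all genes. A DESeq2 Wald test called 4 below. In L1 larvae 8 of the 20 rose and 0 fell, and the list medians were -0.04 in adults and 0.25 in L1 larvae. The pharyngeal gland genes *phat-3*, *phat-7*, *phat-5* and *phat-4* formed another run below. In *phat-7* the adult libraries carried the larger part, with 69.8 CPM in *ebax-1* adults against 144 CPM in WT adults. Its L1 levels were 373 and 388 CPM in the mutant against 355 and 435 CPM in WT. *phat-4* had an adult log2 fold change of -0.93 and was called higher in mutant L1 larvae (0.74), so both stages contributed there. Chromosome V had the largest share of genes called above among the nuclear chromosomes, 9.86%, against 4.15% to 7.77% on the others. Neighbouring genes share regulation and sequence and are not independent.

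Of the 12 genes ranked lowest, 5 differed 2-fold in adults and by less than 0.5 on the log2 scale in L1 larvae. They were *R05A10.1*, *W06H8.2*, *asp-9*, *cyp-29A3* and *pho-8*. The lowest of the 12, *spp-11*, was not among them, since it also fell in mutant L1 larvae (log2 fold change -1.46). The saposin-like gene *spp-11* (chromosome II, 6405388 to 6407379) had 4 counts in the *ebax-1* adult library and 449 in the WT adult library, or 0.3 and 21.3 CPM. It had 0.813 and 0.531 CPM in *ebax-1* L1 larvae against 2.27 and 1.69 CPM in WT L1 larvae, and its stage difference was -4.38 (SE 0.769, edgeR adjusted p = 0.000825). The adult ratio of *R05A10.1* was 0.0796 (0.0440 to 0.133), with 15 counts in *ebax-1* adults and 298 in WT adults, while its L1 log2 fold change was -0.47. The aspartic protease gene *asp-9* (-3.03), the cytochrome P450 gene *cyp-29A3* (-2.69), the acid phosphatase gene *pho-8* (-2.56) and *W06H8.2* (-3.53) also had low counts in mutant adults, between 3 and 75. *hsp-12.6*, a small heat shock gene regulated by DAF-16, had 8.78 CPM in *ebax-1* adults against 39 CPM in WT adults, and 79.3 and 96.9 CPM in *ebax-1* L1 larvae against 97.4 and 104 CPM in WT L1 larvae.

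*sgn-1* (chromosome II, 8782008 to 8783670) had the lowest stage difference among genes that differed 2-fold in L1 larvae alone. It had 6.38 CPM in *ebax-1* adults against 5.32 CPM in WT adults, from 85 and 112 counts, and 134 and 129 CPM in *ebax-1* L1 larvae against 13.9 and 13.9 CPM in WT L1 larvae. The adult ratio was 1.2 (0.894 to 1.6), and the stage difference was -2.97 (SE 0.245, edgeR adjusted p = 5.93e-07). Of the intestinal cathepsin B-like protease genes, *cpr-4* had 1024 CPM in *ebax-1* adults against 1152 CPM in WT adults, and 201 and 229 CPM in *ebax-1* L1 larvae against 86.0 and 77.7 CPM in WT L1 larvae, a stage difference of -1.56.

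Both stages differed at least 2-fold in 1 direction in 38 genes, 19 higher and 19 lower in the mutant. Of these, 3 were called above and 2 below for the stage difference, *spp-11* among the second, so a shared direction was not always a shared size. The smallest stage difference among those called in L1 larvae was that of the C-type lectin gene *clec-1* (chromosome V, 5700154 to 5701080), which had 91.5 CPM in *ebax-1* adults against 226 CPM in WT adults, and 77.4 and 73.7 CPM in *ebax-1* L1 larvae against 190 and 180 CPM in WT L1 larvae. Its stage difference was -0.01 (SE 0.147, edgeR adjusted p = 0.977). The cysteine synthase-like gene *cysl-2* (0.02), the fatty acid desaturase gene *fat-5* (-0.02) and *F54C1.1* (0.03) were lower in the mutant at both stages, and *srlf-3* (-0.04), *C45B11.6* (0.04) and *hrg-10* (0.07) were higher. Named after their values were seen, *srw-85* and *ZK228.4* were low in the mutant at both stages. *ZK228.4* had 0.150 CPM in *ebax-1* adults against 15.6 CPM in WT adults, and 0 counts in both *ebax-1* L1 libraries against 5.64 and 5.15 CPM in the WT L1 libraries. *srw-85* had 0.3 CPM in *ebax-1* adults against 4.13 CPM in WT adults, and 2.03 and 3.89 CPM in *ebax-1* L1 larvae against 61.6 and 59.7 CPM in WT L1 larvae.

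*ebax-1* itself (chromosome IV, 10286955 to 10293013) was low in the mutant at both stages. It had 20.6 CPM in *ebax-1* adults against 49.9 CPM in WT adults, and 40.7 and 46.2 CPM in *ebax-1* L1 larvae against 76.0 and 73.7 CPM in WT L1 larvae. The adult ratio was 0.414 (0.361 to 0.473), the L1 log2 fold change was -0.78 and the stage difference was -0.49 (SE 0.183, edgeR adjusted p = 0.0992), which did not pass. It passed without *ebax-1* L1 replicate 1 (-0.58), with scaling by total counts (-0.61) and with the offset for coding length (-0.67). The counts cover the whole coding sequence, and the part that tm2321 removes was not separated.

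The lists of EBAX-1 ligase, microRNA machinery, heterochronic and reported miR-35 target genes held 0 to 2 calls in either direction. These are too few to set against the 6.74% above and 5.09% below over all genes. The axon guidance list, with 5 called above, is described earlier. Of 13 genes of the EBAX-1 ligase and its chaperone partners 0 were above and 2 below, *ned-8* (-1.26) and *rbx-1* (-0.59), which encode the cullin modifier and the RING subunit of cullin ligases. *rbx-1* was not called without WT L1 replicate 1 or 2 or with the coding length offset. Of 26 genes of the microRNA machinery 0 were above and 1 below, the Argonaute gene *alg-5* (-0.99). Of 15 heterochronic timing genes 2 were above and 0 below, *lin-41* (0.64) and *hbl-1* (0.68). A DESeq2 Wald test called 0 above and 0 below in this list. *lin-41* had 157 CPM in *ebax-1* adults against 162 CPM in WT adults, and 168 and 172 CPM in *ebax-1* L1 larvae against 279 and 268 CPM in WT L1 larvae. *hbl-1* was not called without WT L1 replicate 1 or with scaling by total counts. Of 5 reported targets of the miR-35 family, 0 were above and 1 below, *gld-1* as given above. Of 37 genes in the chromosome IV interval of lowered piRNAs, 3 were above and 1 below, with medians of 0.06 in adults and 0.06 in L1 larvae.

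Other lists held calls in both directions, to be set beside 6.74% above and 5.09% below over all genes. Of 136 detoxification genes 19 were above and 8 below, the count below being close to its share over all genes. The glucuronosyltransferase gene *ugt-18* had 107 CPM in *ebax-1* adults against 29.5 CPM in WT adults, and 84.6 and 78.5 CPM in *ebax-1* L1 larvae against 95.2 and 83.9 CPM in WT L1 larvae. The P-glycoprotein gene *pgp-9* ran the other way in adults, at 17.3 CPM in the mutant against 51.6 CPM in WT, with overlapping L1 libraries and a stage difference of -1.59. The detoxification count above was 29 without *ebax-1* L1 replicate 1, and 6 in the DESeq2 Wald test, which called 3 below. Of 80 F-box genes of the fbxa family 6 were above and 3 below, close to the shares over all genes. In this family 8 were at least 2-fold higher in mutant adults, against 2.82% of all genes. Of 46 pqn genes, named for glutamine- and asparagine-rich proteins, 7 were above and 5 below, and 11 above without *ebax-1* L1 replicate 2. Of 37 starvation and DAF-16 response genes 8 were above and 10 below, the first led by *lys-7* and *dod-24* and the second by *hsp-12.6*. The starvation list gave 6 above and 6 below without WT L1 replicate 1, and 5 above without WT L1 replicate 2. Of 33 proteasome genes 1 was above and 3 below, with 31 below 0 in adults and a median of -0.20 there. The proteasome count below was 7 without *ebax-1* L1 replicate 1, 12 without replicate 2, 1 without WT L1 replicate 2, 8 under scaling by total counts and 0 in the DESeq2 Wald test.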

How the data were processed

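The deposited values are raw read counts for each gene, not normalized. According to the study's methods and the processing notes of the submitters, the authors aligned 50-nt single-end reads with STAR 2.7.1a, kept unique alignments, and counted them by strand over coding sequence with featureCounts (WS245 annotation, WBcel235 build), so untranslated regions and reads shared by paralogs are not counted. Of 20447 gene IDs, 20159 had a position in the WBcel235 annotation used here. All 6 columns matched a label.

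Lists were described by counts and medians, not tested. A group-means model over the 6 libraries was fitted with edgeR 4.0.16 (R 4.3.3) with TMM factors within each stage and a prior count of 1. Its interaction contrast gave the stage difference. Adult ratios have exact binomial intervals at 95%, for counting error only. Replicates differed by more than counting noise (chi-square per degree of freedom 7.21 in *ebax-1* L1 and 4.35 in WT L1). The code was tested on simulated data. DESeq2 1.42.0 and limma 3.58.1 were alternatives, with other scalings, filters, a replicate block, each L1 library left out and, chosen after seeing the data, an offset for coding length.

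The genes, the 39 lists and the tests were chosen with earlier results of these data known. The rule for named genes took *ebax-1* and *emb-9*; among called genes over 5 CPM in a group, the 12 with the highest and the 12 with the lowest stage difference, if they had 1 sign in all 4 combinations of 1 mutant and 1 WT L1 library; up to 4 called genes a list with the smallest adjusted p, else up to 2; and up to 8 genes each at least 2-fold in opposite directions or in 1 direction. Others are named as chosen after their values were seen, as members of neighbouring runs, or as markers.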

Additional observations from a re-analysis of the deposited data

Results flagged for a closer look

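The genotype difference itself differed between the stages, by the edgeR interaction test, in 788 genes with the adult difference above the L1 difference and in 595 with it below. The test rests on the spread of 4 L1 libraries and on 1 adult library per genotype.

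In 8 genes called in L1 larvae, at least 2-fold in opposite directions and with the largest stage differences of that kind, the mutant was higher in adults and lower in L1 larvae. The stage differences were 7.05 for *col-159*, 6.48 for *col-92*, 5.07 for *col-101*, 4.19 for *col-80* and 4.08 for *col-160*, all cuticle collagens. They were 3.51 for the F-box gene *fbxa-26*, 3.50 for the C-type lectin gene *clec-60* and 3.30 for *dod-22*. Mutant strain, age, feeding state and RNA input changed with the stage and cannot be told apart.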

How the results depend on the processing

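The 4 L1 libraries carry all of the spread, so the counts of calls depend on them. Leaving out 1 L1 library at a time gave 657 to 1138 genes above, 494 to 1011 below, 536 to 1055 L1 rises and 781 to 1349 L1 falls. In these fits the lone library is assumed to vary like the others. The DESeq2 Wald test called 265 above, 240 below, 443 L1 rises and 508 L1 falls. Total count scaling gave 909 below, 2154 L1 rises and 654 L1 falls, and 38.6% of its calls were above, against 57% in the edgeR fit with TMM and 44.9% with DESeq2 size factors. The adult 2-fold counts followed the filter: 629 higher and 534 lower with 10 counts per stage, 1063 and 996 with 10 counts over all libraries, and 159 and 102 with 50 counts in every library. The causes were not tested, apart from the larger or smaller number of genes kept by a filter. Deviations of the L1 libraries with the same replicate number were nearly uncorrelated between the genotypes (-0.0142). With 2 libraries a genotype this cannot show whether they were prepared together. A replicate block gave 930 above and 779 below. Across 14 alternatives, 213 genes were called above and 172 below every time, and none of the 145 genes named by rule reversed. In the DESeq2 Wald test 35 of the 145 had a weaker result and 110 the same, and some also weakened when a WT L1 library was left out. The medians of the innate immunity, chemoreceptor, mitochondrially encoded, molting, adult hypodermis, starvation and pqn lists, all between 0.01 and 0.09, changed sign under at least 1 scaling. Total count scaling shifts the median of all genes to -0.130 and DESeq2 size factors to -0.087, which moves all lists alike.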
